A study of Homo sapiens with 6 samples.

Results

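The 9 neuroectoderm lineage genes PAX6, SOX1, OTX2, LHX2, SIX3, SIX6, ZIC1, ZIC2 and HESX1 were examined for open chromatin in undifferentiated human cells. They were chosen by name from the 20037 protein-coding genes in the RefSeq table of GRCh38.p14, and every ATAC-seq summit inside a gene or within 20 kb of it was taken. That gave 326 of the 356720 summits of the series, which fell into 108 of 123131 loci. ATAC-seq uses a transposase that cuts accessible DNA, and a summit is the point of strongest signal in a peak. The cells were H1, an established human embryonic stem cell line, grown in mTeSR1 medium on Matrigel, and all of them had received a lentiviral short hairpin RNA and puromycin selection. There were 2 libraries with the hairpin shHNRNPU #1, 2 with shHNRNPU #2, both against the nuclear RNA-binding protein HNRNPU, and 2 with the control hairpin shLUC. Each library was made from nuclei of 50000 cells with 17 PCR cycles. No cells were differentiated, so the open sites described are those present before any lineage was induced, and the files do not show how far HNRNPU was depleted.

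Neuroectoderm is the layer of the early embryo from which the brain, spinal cord and eye develop. The genes that specify it encode transcription factors, and in pluripotent cells many such developmental genes are silent or weakly expressed while their promoters lie in accessible, CpG-rich DNA. SOX1, a SoxB1 factor, is one of the earliest markers of the neural plate. PAX6, a paired-box factor, is needed for eye and forebrain development, and LHX2, a LIM-homeodomain factor, acts in the same tissues. OTX2 and HESX1 are homeodomain factors of the anterior neural plate, and both are also known from primed pluripotent cells. SIX3 and SIX6 are related homeodomain factors of the rostral forebrain and eye field. ZIC1 and ZIC2 are zinc-finger factors of the dorsal neural tube, each lying beside another gene of the same family in the genome.

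The lists held 52168 to 63519 summits per library, and the lowest scores lay just above the value that a q-value of 0.05 gives. The score is the −log10 of the q-value that the peak caller gave, so it is comparable only within a library, and it was therefore turned into a percentile within its own list, where 100 is the highest score. Depth is unknown, since the lists hold no read counts, so the lack of a summit means only that none was called. In a bulk library, fewer cells with an open site and a weaker opening in every cell cannot be told apart. An end of a gene was called open in a library with a summit within 2000 bp of it. The pluripotency genes served as a check of the cell type. Of 9 markers listed, 8 were in the gene table, and all 8 had an open end in all 6 libraries. Among 4 fibroblast or feeder markers 3 had an open end in every library and LUM had none, and among 4 neuron markers 3 did and GAD1 did not. Of all protein-coding genes, 68.5% had an open end in every library, so an open end by itself does not mark a cell type.

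RefSeq promoter sequences, which run from 250 bases before to 50 bases after an annotated start, were matched for 8 of the 9 genes and covered 18 starts. SIX3 had no entry. For 6 starts the sequence is printed, to set those with a summit in the promoter of every library beside those with few or none. The sequences are GRCh38.p14, read 5′ to 3′ on the strand of the gene. HESX1 start 1 is chr3:57227566-57227865 and HESX1 start 2 is chr3:57199929-57200228, both on the minus strand. LHX2 is chr9:124011518-124011817 on the plus strand, and PAX6 start 1 is chr11:31817912-31818211 on the minus strand. ZIC1 is chr3:147409115-147409414 on the plus strand, and OTX2 start 1 is chr14:56810430-56810729 on the minus strand. Capitals mark matches, on either strand, to the TATA box (TATAAA), the CCAAT box (CCAAT), the GC box (GGGCGG), the E-box (CACGTG) and the octamer (ATGCAAAT).
HESX1 start 1: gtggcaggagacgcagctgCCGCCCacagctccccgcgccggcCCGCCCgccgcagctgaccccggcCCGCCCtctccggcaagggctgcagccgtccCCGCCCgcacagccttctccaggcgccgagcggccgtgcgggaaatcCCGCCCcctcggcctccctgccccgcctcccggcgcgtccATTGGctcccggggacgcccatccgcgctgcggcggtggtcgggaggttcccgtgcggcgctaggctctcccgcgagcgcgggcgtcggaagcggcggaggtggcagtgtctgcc
HESX1 start 2: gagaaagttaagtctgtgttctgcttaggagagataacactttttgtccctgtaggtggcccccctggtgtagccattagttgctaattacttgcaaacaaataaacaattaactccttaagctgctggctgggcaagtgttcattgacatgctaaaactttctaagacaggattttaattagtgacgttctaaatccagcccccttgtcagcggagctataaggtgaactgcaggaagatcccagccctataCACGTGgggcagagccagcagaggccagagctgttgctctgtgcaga
LHX2: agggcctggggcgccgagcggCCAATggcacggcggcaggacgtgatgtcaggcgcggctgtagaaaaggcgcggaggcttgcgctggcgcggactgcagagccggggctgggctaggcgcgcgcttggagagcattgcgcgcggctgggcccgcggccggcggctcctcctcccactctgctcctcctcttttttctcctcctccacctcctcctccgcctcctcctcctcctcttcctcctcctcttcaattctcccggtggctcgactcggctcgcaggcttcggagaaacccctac
PAX6 start 1: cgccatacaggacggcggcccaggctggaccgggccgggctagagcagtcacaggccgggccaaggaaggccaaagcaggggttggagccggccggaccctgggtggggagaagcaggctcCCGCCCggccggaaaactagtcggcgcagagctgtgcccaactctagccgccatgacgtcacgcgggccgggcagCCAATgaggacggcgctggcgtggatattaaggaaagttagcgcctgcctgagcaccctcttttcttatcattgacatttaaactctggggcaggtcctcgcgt
ZIC1: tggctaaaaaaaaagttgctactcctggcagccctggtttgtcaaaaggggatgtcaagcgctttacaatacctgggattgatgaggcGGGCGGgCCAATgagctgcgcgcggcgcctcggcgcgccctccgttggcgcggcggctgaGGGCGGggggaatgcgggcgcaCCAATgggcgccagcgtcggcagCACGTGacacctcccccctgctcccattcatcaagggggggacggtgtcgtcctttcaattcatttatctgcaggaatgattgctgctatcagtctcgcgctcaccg
OTX2 start 1: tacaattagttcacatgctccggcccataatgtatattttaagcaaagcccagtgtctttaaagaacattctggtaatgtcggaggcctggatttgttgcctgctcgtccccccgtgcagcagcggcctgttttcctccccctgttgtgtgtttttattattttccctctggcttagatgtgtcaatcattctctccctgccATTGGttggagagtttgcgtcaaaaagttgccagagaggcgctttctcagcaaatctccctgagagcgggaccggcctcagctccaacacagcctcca

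A summit lay within the printed 300 bases in all 6 libraries at both HESX1 starts, at LHX2 and at PAX6 start 1. At ZIC1 a summit lay in the window in 2 libraries and at OTX2 start 1 in 0. The 2 HESX1 promoters were unlike in composition although both were open. Start 1 had 78.7% GC with 43 CpG dinucleotides and 5 matches to GGGCGG, whereas start 2 had 46.3% GC, 3 CpG and 1 match to CACGTG. The medians over all 35116 promoters were 58.7% GC and 14 CpG. LHX2 had 69.0% GC with 30 CpG, PAX6 start 1 had 64.7% with 24, ZIC1 had 61.3% with 26, and OTX2 start 1 had 49.7% with 9. Of the starts not printed, SOX1 had 80.0% GC and 37 CpG and ZIC2 75.0% and 35. PAX6 start 2, with a summit in the window in 0 libraries, had 63% GC and 18 CpG. PAX6 starts 4, 5, 8 and 9 and OTX2 start 2 also had 0, with 47.3% to 52% GC and 5 to 11 CpG. Among the 18 starts, of which 9 are of PAX6, TATAAA was found at 0 and ATGCAAAT at 0, against 11.5% and 1.77% of all promoters. CCAAT was found at 8 (34.6% of all promoters), GGGCGG at 11 (45.0%) and CACGTG at 2 (7.26%). Matches of one motif can overlap each other, as the GGGCGG matches of ZIC2 do. A match to letters is a description of the sequence and does not show that a factor bound there.

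Most of the annotated starts had a summit within 2000 bp before differentiation. Of the 18 starts, 15 had a summit within 2000 bp in all 6 libraries and 0 had one in none. PAX6 alone has 9 of these starts, several of which share 1 summit, and the share over all annotated starts is not given. Within 500 bp, PAX6 starts 1 and 6, SOX1, LHX2 and both HESX1 starts had a summit in all 6 libraries. PAX6 starts 2, 4, 5, 8 and 9 and OTX2 start 1 had one within 500 bp in 0 libraries. By gene, 8 of the 9 members (88.9%) had an open end in every library, against 68.5% of all protein-coding genes. ZIC1 had one in 5 libraries. With a distance of 500 bp in place of 2000 bp an end was open in every library for 4 members, and with scores of at least 5 for 6. The share of all genes at these settings is not given. Counting starts alone, 7 of the 8 genes with an entry were open in every library, against 71.3% of all genes with an entry. These are descriptions of a short list beside all genes, and no test was made of them.

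HESX1 and LHX2 had the strongest summits at their starts. The HESX1 locus centred at chr3:57227695 lay 80 bp upstream of start 1. Its score percentile was 98.5 and 97.9 with shHNRNPU #1, 95.3 and 97.6 with shHNRNPU #2, and 97.7 and 96.5 with shLUC. The start of APPL1, which encodes an endosomal adaptor protein, lies 114 bp away on the opposite strand, so this summit cannot be assigned to HESX1 alone. The second HESX1 start is 27751 bp from that of APPL1. A locus centred at chr3:57200054, 76 bp upstream of it, had percentiles of 90.2 and 94.9 with shHNRNPU #1, 93.4 and 93.9 with shHNRNPU #2, and 89.7 and 95.1 with shLUC. Both HESX1 starts were therefore among the best-scored summits of every library, and the groups overlapped at each. A further locus at chr3:57197142, 696 bp beyond the far end of the gene, was called in 4 libraries, of which 2 were shLUC.

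At LHX2 the locus centred at chr9:124011595 lay 173 bp upstream of the start. Its percentile was 94.0 and 93.3 with shHNRNPU #1, 92.1 and 95.0 with shHNRNPU #2, and 90.7 and 89.4 with shLUC. All 4 shHNRNPU libraries were thus above both shLUC libraries, by 3.6 percentile points on average. The far end of LHX2 was open in 2 libraries, shHNRNPU #1 repeat 1 and shLUC repeat 2, through a locus inside the gene at chr9:124032493.

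SOX1 and ZIC2 had starts of intermediate to high rank. The SOX1 start locus at chr13:112066810, 339 bp upstream, had percentiles of 74.6, 72.0, 77.6 and 60.5 with shHNRNPU and 51.6 and 77.7 with shLUC. Weaker summits lay inside the gene at chr13:112068171 in 3 libraries and at chr13:112068434 in 2. The far end of SOX1 was open in all 6 libraries too, through the neighbouring loci chr13:112072523 in 2 libraries and chr13:112072928 in the other 4. At ZIC2 the nearest summit lay 215 to 864 bp from the start in every library, at chr13:99981532 in 4 libraries and at chr13:99980944 in the other 2. The percentiles of these ZIC2 summits were 81.0 and 79.8 with shHNRNPU #1, 74.8 and 74.2 with shHNRNPU #2, and 67.0 and 72.3 with shLUC. All 4 shHNRNPU libraries were above both shLUC libraries here, which was not tested. Single libraries had a further summit at chr13:99980483, in shLUC repeat 1, and at chr13:99988646, near the far end, in shHNRNPU #1 repeat 1.

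PAX6 was open at its first start at middling rank. The locus at chr11:31818108, 147 bp upstream, had percentiles of 41.3, 53.1, 35.6 and 62.1 with shHNRNPU and 44.1 and 49.5 with shLUC. PAX6 has 9 annotated starts, and 8 of them had a summit within 2000 bp in every library, while start 8 had one in 4 libraries. Since the starts lie close together, 1 summit can serve several of them. The end opposite to the start had no summit within 2000 bp in any library.

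At SIX6 a summit lay 34 to 160 bp from the start in 5 libraries, in a locus centred at chr14:60509105. In shHNRNPU #1 repeat 1 the nearest was 832 bp away, inside the gene at chr14:60509978, a locus that both shLUC libraries also held. Both loci also lie inside C14orf39, a gene on the opposite strand whose start is 23083 bp from that of SIX6. The percentile of the nearest SIX6 summit was 54.7 and 60.0 with shHNRNPU #1, 85.3 and 66.6 with shHNRNPU #2, and 55.4 and 27.9 with shLUC, so no group stood apart. At ZIC1 the nearest summit lay 435 and 421 bp from the start with shHNRNPU #1, 93 bp in shHNRNPU #2 repeat 1, and 119 and 351 bp with shLUC. These came from the locus chr3:147409272 in 2 libraries and from chr3:147409716 inside the gene in 3. In shHNRNPU #2 repeat 2 the nearest ZIC1 summit was 3587 bp away, which left that library as the one without an open ZIC1 end.

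The outer start of OTX2 lay away from its summits. No summit lay within 500 bp of OTX2 start 1 in any library. The nearest lay between 1267 and 1851 bp away, at chr14:56809011 in 5 libraries or chr14:56812330, and its percentile was low, from 3.40 to 33.9. The inner start 2, at chr14:56805667, had a summit 81 to 324 bp away in 5 libraries and none within 2000 bp in shHNRNPU #1 repeat 1. The locus of highest mean percentile of OTX2, at chr14:56805991, lay 324 bp upstream of that inner start. Its percentile was 69.1 in shHNRNPU #1 repeat 2, 39.6 and 81.0 with shHNRNPU #2, and 71.7 and 57.0 with shLUC. The far end of OTX2 was open in all 6 libraries through the loci chr14:56798230 and chr14:56798658.

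SIX3 was open at one end and not at the other, as PAX6, SIX6 and ZIC1 were. Its ends are given by coordinate. The lower end, chr2:44941702, had no summit within 2000 bp in any library, and the nearest lay 2049 to 2985 bp away. The higher end, chr2:44946071, was open in all 6 libraries, but at unequal distances. With shHNRNPU the nearest summit lay 63 to 94 bp from that end in all 4 libraries, and with shLUC it lay 1390 and 1435 bp away, in the locus chr2:44944721 inside the gene. That inner locus was also called in 3 shHNRNPU libraries. A weaker inner locus at chr2:44944090 was called in 1 library of shHNRNPU #2 and 1 of shLUC.

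**Figure D1:**
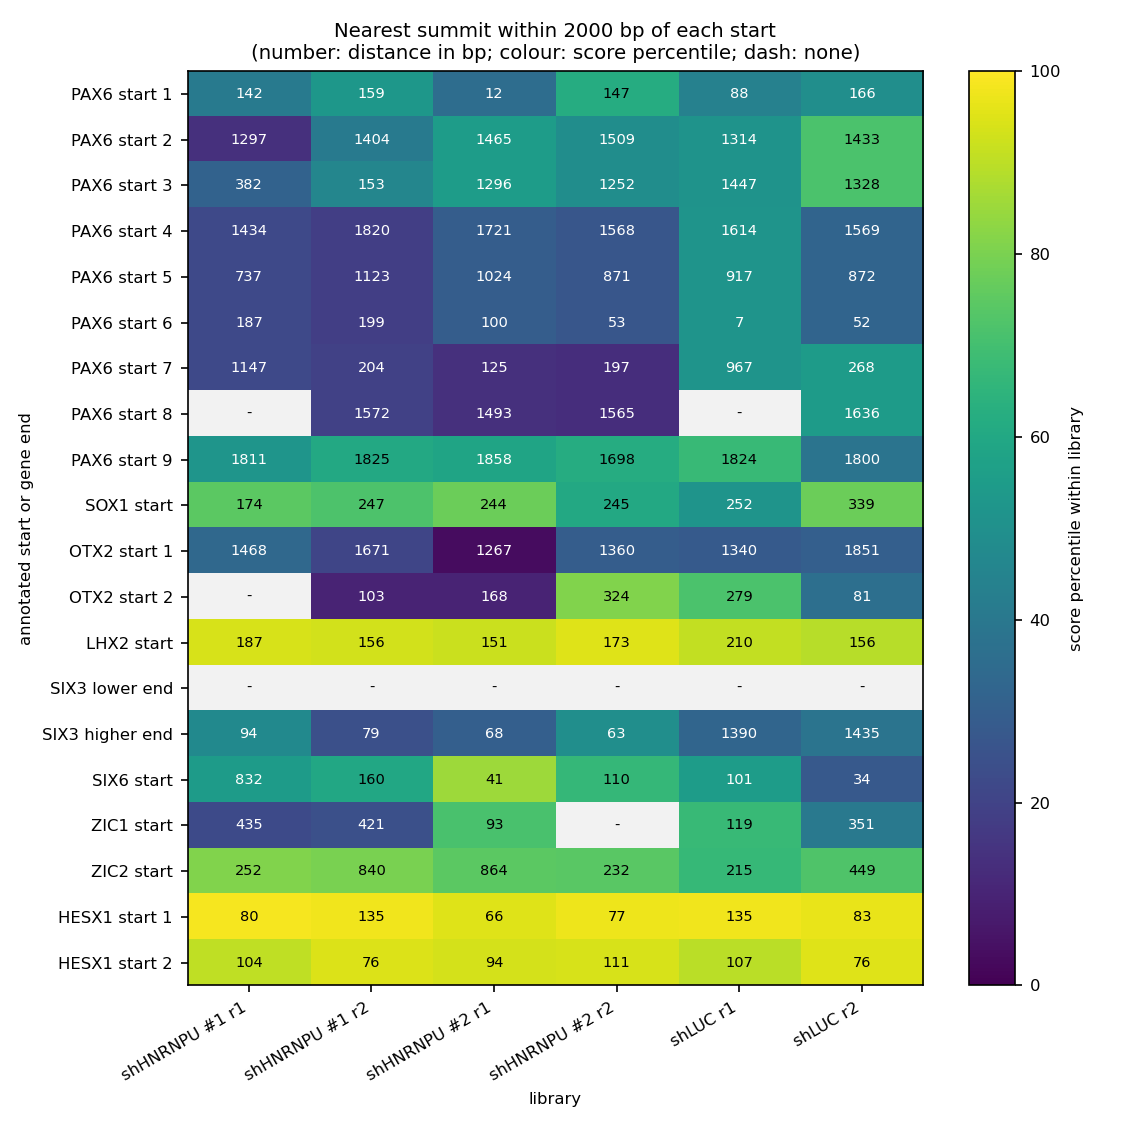
Distance in bp from each annotated start of the 9 genes, or each end of SIX3, to the nearest summit within 2000 bp (number in the cell), with the score percentile of that summit as the colour, for 6 libraries (columns; r1 and r2 are repeats 1 and 2). LHX2 and both HESX1 starts had summits above percentile 89 in every library, and the higher end of SIX3 had summits within 94 bp with shHNRNPU and 1390 and 1435 bp away with shLUC.

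Around the starts, the genes lay in windows rich in loci. The median number of loci per window was 14 for the members and 5 for all protein-coding genes, or 2.57 and 0.616 loci per 10 kb. Loci are pooled over all libraries, and a site whose summit moves can count more than once, so these are not numbers per library. OTX2, for example, had 13 loci but 5 to 8 summits in a library. Other developmental genes, described further below, also lay above all genes per 10 kb. The median was 1.68 for 40 further neuroectoderm genes, 1.86 for 9 endoderm genes and 0.980 for 9 mesoderm genes. Their median numbers of loci were 10, 9 and 5. A raised density was therefore not particular to the members, although their median was the highest among these lists. Per 10 kb, ZIC1 had 3.17, SIX3 3.16, SOX1 3.14 and ZIC2 3.11 loci. OTX2 had 2.57, LHX2 2.44, PAX6 1.74 and SIX6 1.37. HESX1 had 0.717, which lies at percentile 58.1 of all genes, while the other 8 members lay between percentile 88.1 and 99.9. HESX1 was thus the member with the fewest loci and the best-scored ones. Of the 108 loci, 25 lay inside a member gene and 83 outside, and 25 lay within 2000 bp of an end of a member. Some lay inside other protein-coding genes, such as C14orf39, which overlaps SIX6, ZIC4 beside ZIC1 and ZIC5 beside ZIC2. Others lay over long non-coding RNA genes such as PAX6-AS1, SOX1-OT, OTX2-AS1 and LINC01833. Summits of both kinds cannot be assigned to the member by position alone.

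Few of these loci were shared by all libraries. In all 6 libraries were 14 of the 108 loci (13.0%), against 20.7% of all 123131 loci. A single library held 27 (25.0%, against 38.0% of all loci), and the remaining loci were in 2 (21), 3 (16), 4 (17) or 5 (13) libraries. Scores were low as well. The median percentile of the 326 summits was 42.6, only 12.0% of them were above percentile 75, and 5.21% were above percentile 90. At the 14 loci in all 6 libraries the median of the mean percentile was 57.2, against 73.7 at all 25519 such loci. They ranged from 30.1 at a PAX6 locus to 97.3 at the first HESX1 start. PAX6 and ZIC1 had 4 of them each, LHX2 and HESX1 2 each, and SOX1 and SIX3 1 each. OTX2, SIX6 and ZIC2 had 0.

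Because a locus is matched within 250 bp, a site whose summit moves between libraries can be split. There were 11 pairs of neighbouring loci, at most 1000 bp apart and in 6 of the genes, in which neither locus was in all 6 libraries but the pair together was. This count was made after the values were seen, and no share of such pairs among all loci is given. Not every pair is a split site. At SIX6, chr14:60515068 and chr14:60515756 lay 688 bp apart and 4 libraries held both, so these are separate summits. ZIC2 had 3 such pairs. One was at its start, described above. Another lay about its upstream neighbour ZIC5, at chr13:99971327 and chr13:99971929, where the percentiles were 78.4, 87.0, 74.1 and 88.5 with shHNRNPU and 66.1 and 74.5 with shLUC. The last lay downstream in LINC00554, at chr13:99997358 and chr13:99997649, with 82.3, 80.3, 77.8 and 68.8 against 64.6 and 68.2. ZIC2 therefore had 3 sites with a summit above percentile 64 in every library, although none of its single loci reached all 6. At the start and in LINC00554 every shHNRNPU library was above both shLUC libraries, and near ZIC5 the groups overlapped. Such separation was not tested for pairs. It was met by 10.9% of all loci held by all 6 libraries.

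**Figure D2:**
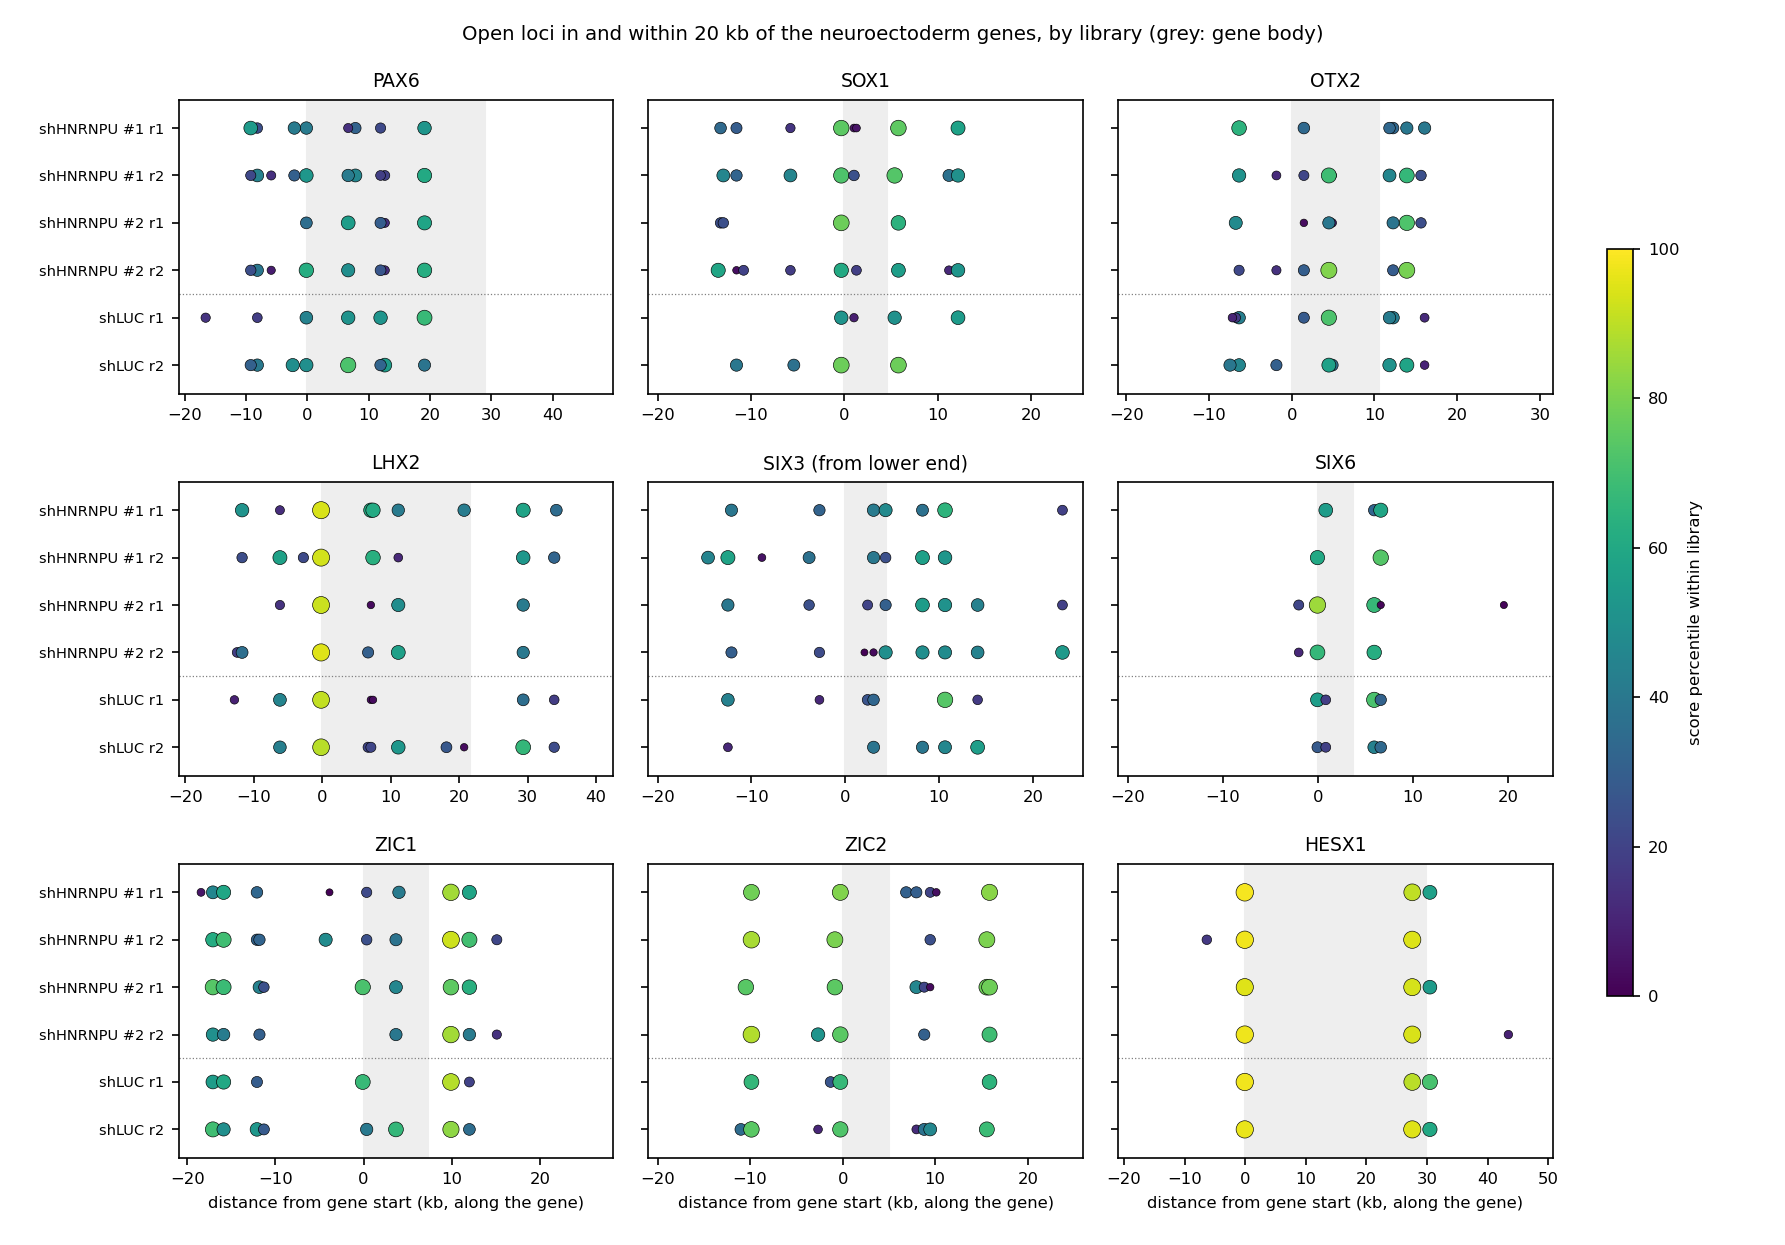
Every locus in and within 20 kb of the 9 genes, plotted by its distance in kb from the gene start along the direction of transcription (SIX3 from its lower end), with 1 row per library, 1 point per library that held the locus, and the score percentile as colour and size. The grey band is the gene body. The strongest points sit at the LHX2 start and both HESX1 starts in every library. Of the 108 loci, 14 were in all 6 libraries and 27 in a single library.

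The number of summits around the genes was then compared between shHNRNPU and shLUC. No comparison of 4 with 2 libraries can give a two-sided p below 0.133, since there are 15 ways to choose the controls, and the labels do not say whether the repeats came from separate cultures, so p measures only the spread between these libraries. All 9 windows together held 57 and 60 summits with shHNRNPU #1, 50 and 56 with shHNRNPU #2, and 47 and 56 with shLUC. With shHNRNPU this averaged 55.8 ± 4.19 (SD, n = 4), and with the control hairpin 51.5 ± 6.36 (SD, n = 2). The gap of 4.25 summits did not exceed the spread among libraries (exact permutation test, p = 0.4). Without shLUC repeat 1, which had the fewest, the difference was -0.25. Per 10000 summits of a library the values were 9.60 ± 0.894 (SD, n = 4) and 8.34 ± 1.11 (SD, n = 2), a difference of 1.26 (exact permutation test, p = 0.267).

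SIX3 was the only member at which the groups did not overlap. Its window held 7 and 8 summits with shHNRNPU #1, 8 and 9 with shHNRNPU #2, and 6 and 5 with shLUC. The mean was 8 ± 0.816 (SD, n = 4) against 5.50 ± 0.707 (SD, n = 2), a difference of 2.5 summits (exact permutation test, p = 0.133, the smallest possible). Among all 18733 genes with a summit in the window, 3.54% had more summits in every shHNRNPU library than in both shLUC libraries and 3.92% had fewer. Of the 9 members, 1 lay in the first direction and 0 in the second. After Benjamini-Hochberg adjustment over the 18733 genes, the adjusted p of every gene was 1. The count of genes with an unadjusted p below 0.05 was 0, as it must be with 6 libraries. Among the cell type markers, NANOG, a core pluripotency factor, had 2, 2, 1 and 1 summits with shHNRNPU against 4 and 3 with shLUC, SALL4 had 4 in each shHNRNPU library against 3 and 3, and of the 4 neuron markers GAD1 was higher in every shHNRNPU library and SYT1 lower. The part of these markers in the SIX3 difference was not tested. With a window of 10 kb the SIX3 difference was 1.5 summits and with scores of at least 5 it was 2 (exact permutation test, p = 0.267 for each), and the groups overlapped in both. Every shHNRNPU library had a SIX3 summit at chr2:44946008, a locus described below that no shLUC library held. Without that summit the SIX3 counts of the groups would not be apart.

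For the other members the groups overlapped. SOX1 had 7 and 8 summits with shHNRNPU #1, 3 and 9 with shHNRNPU #2, and 4 and 4 with shLUC, the widest spread of any member. OTX2 had 5, 8, 7 and 6 with shHNRNPU against 8 and 8 with shLUC, a difference of -1.5. ZIC1 had 9, 9, 8 and 7 against 6 and 8. SOX1 and ZIC1 were higher with shHNRNPU by 2.75 and 1.25 summits on average, and in both the ranges of the groups overlapped. The differences were 0.75 for PAX6, -0.25 for LHX2, -0.75 for SIX6 and -0.5 for ZIC2, each smaller than the SD of its shHNRNPU libraries. HESX1 had 3 summits in each of the 6 libraries. The exact permutation p of these 8 genes lay between 0.4 and 1. The median difference over the 9 members was 0, as it was over all genes tested.

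**Figure D3:**
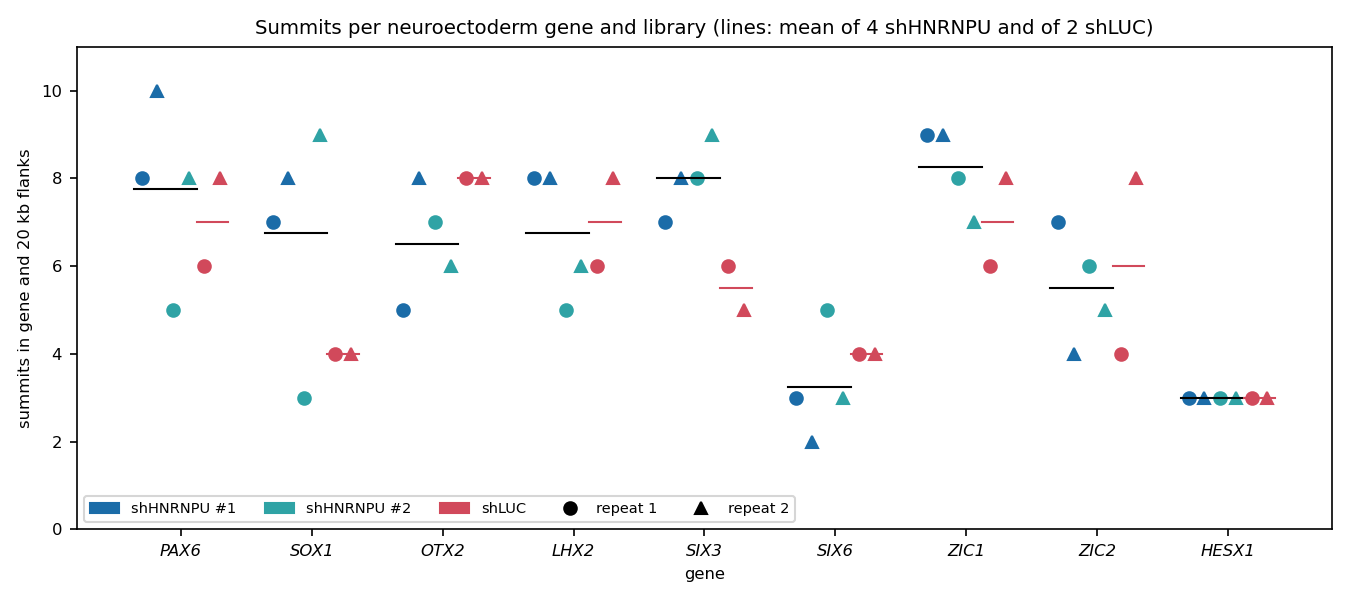
Number of summits inside each gene and within 20 kb of it, by gene (horizontal axis) and library (points; colour is the hairpin, circles are repeat 1 and triangles repeat 2), with lines at the mean of the 4 shHNRNPU and of the 2 shLUC libraries. SIX3 has 7 to 9 summits with shHNRNPU and 5 to 6 with shLUC, and at every other gene the groups overlap.

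Loci were next sorted by presence. A locus was lost if both shLUC libraries and no shHNRNPU library held it, and gained if all 4 shHNRNPU libraries and neither shLUC library did. Of the 108 loci 0 were lost, while 1.93% of all loci were. One was gained (0.926%), against 0.880% of all loci. It lay inside SIX3 at chr2:44946008 (250 bp to each side, chr2:44945758-44946258), 63 bp from the higher end. Its scores were 7.26 and 4.27 with shHNRNPU #1 and 4.46 and 8.25 with shHNRNPU #2. As percentiles these were 47.6, 24.6, 30.4 and 49.3, so it lay below the median score of each library. The nearest shLUC summit was 1327 bp away, and the locus was still called gained with absence judged within 1000 bp. With scores of at least 5 it was no longer called, since 2 of its 4 scores are lower, and the single gained locus was then chr3:147421374, downstream of ZIC1. The gained SIX3 site, chr2:44946008, is the one that put the SIX3 summits next to the higher end with shHNRNPU alone.

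Each hairpin was also set against the same 2 shLUC libraries, so these calls are not independent of each other. With shHNRNPU #1, 5 loci (4.63%) were gained and 1 (0.926%) was lost, against 3.62% and 3.53% of all loci. The gained ones were the SIX3 site, chr11:31810112, which is 153 bp upstream of PAX6 start 3, chr11:31820067 upstream of PAX6, chr13:112061369 upstream of SOX1, and chr9:124000056 upstream of LHX2. The PAX6 site near start 3 had percentiles of 31.3 and 45.9, and the nearest shLUC summit was 1175 bp away. At the second PAX6 site that distance was 265 bp and at the SOX1 site 363 bp, little more than the matching distance. The lost locus, chr2:44955817, lay 9746 bp beyond SIX3 and was held by both libraries of shHNRNPU #2.

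With shHNRNPU #2, 4 loci (3.70%) were gained and 5 (4.63%) lost, against 2.40% and 4.05% of all loci. The gained loci were the SIX3 site, chr2:44964861 at 18790 bp beyond SIX3, chr14:60507137 at 2009 bp upstream of SIX6, and chr3:147397551 in ZIC4. The lost loci were chr14:56794417 and chr14:56798658 downstream of OTX2, chr9:124045648 downstream of LHX2, chr14:60509978 in SIX6, and chr3:147397268 in ZIC4. The gained and the lost locus in ZIC4 were 283 bp apart, so the same stretch was called in every library with its summit on either side of the matching distance. The lost OTX2 locus chr14:56798658 had a neighbour 428 bp away that both shHNRNPU #2 libraries held. Outside the SIX3 site, no locus of the 108 was gained with both hairpins, and no locus was lost with both. This restates the gained and lost calls over all libraries, since the same shLUC libraries were used for each hairpin.

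At the 14 loci in all 6 libraries, scores gave the height of the site relative to its library. The mean percentile over the 14 was 61.3 and 66.4 with shHNRNPU #1, 64.9 and 61.0 with shHNRNPU #2, and 62.6 and 64.3 with shLUC. That is 63.4 ± 2.68 (SD, n = 4) against 63.5 ± 1.18 (SD, n = 2), a difference of -0.0696 (exact permutation test, p = 1). Over all 25519 such loci the means were 71.5 ± 2.03 (SD, n = 4) and 72.0 ± 0.118 (SD, n = 2), a difference of -0.517 (exact permutation test, p = 0.667).

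Taken singly, 2 of the 14 loci were higher in every shHNRNPU library and 1 was lower, against 10.9% and 13.9% of all such loci. The higher ones were the LHX2 start, given above, and chr3:147421374, which lies 12009 bp downstream of the ZIC1 start. The latter had percentiles of 58.2 and 69.7 with shHNRNPU #1, 62.9 and 41.4 with shHNRNPU #2, and 19.7 and 35.4 with shLUC, a difference of 30.5 points. The lower one, chr11:31806008, lies 7 bp upstream of PAX6 start 6. Its percentiles were 22.1, 18.5, 29.4 and 26.7 with shHNRNPU against 51.6 and 32.3 with shLUC, a difference of -17.8 points. Each of the 3 had the smallest p possible (exact permutation test, p = 0.133), and the counts are near the background shares. The locus 1328 bp upstream of PAX6 start 3, chr11:31811287, had 13.8, 41.0, 55.4 and 48.9 against 51.3 and 71.7, and its groups overlapped.

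The best-scored loci of ZIC1, SIX3 and PAX6 showed no separation. That of ZIC1, at chr3:147419280 and 9915 bp downstream of the start, had percentiles from 75.3 to 92.2 with shHNRNPU and of 88.9 and 83.0 with shLUC, and it ranked above any summit at the ZIC1 start. That of SIX3, at chr2:44952342, lay 6271 bp beyond the higher end and had 64.5, 52.7, 50.4 and 48.0 against 73.8 and 46.4. That of PAX6, at chr11:31798837 inside the gene, had 52.0, 60.4, 58.6 and 61.9 against 67.4 and 38.5.

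**Figure D4:**
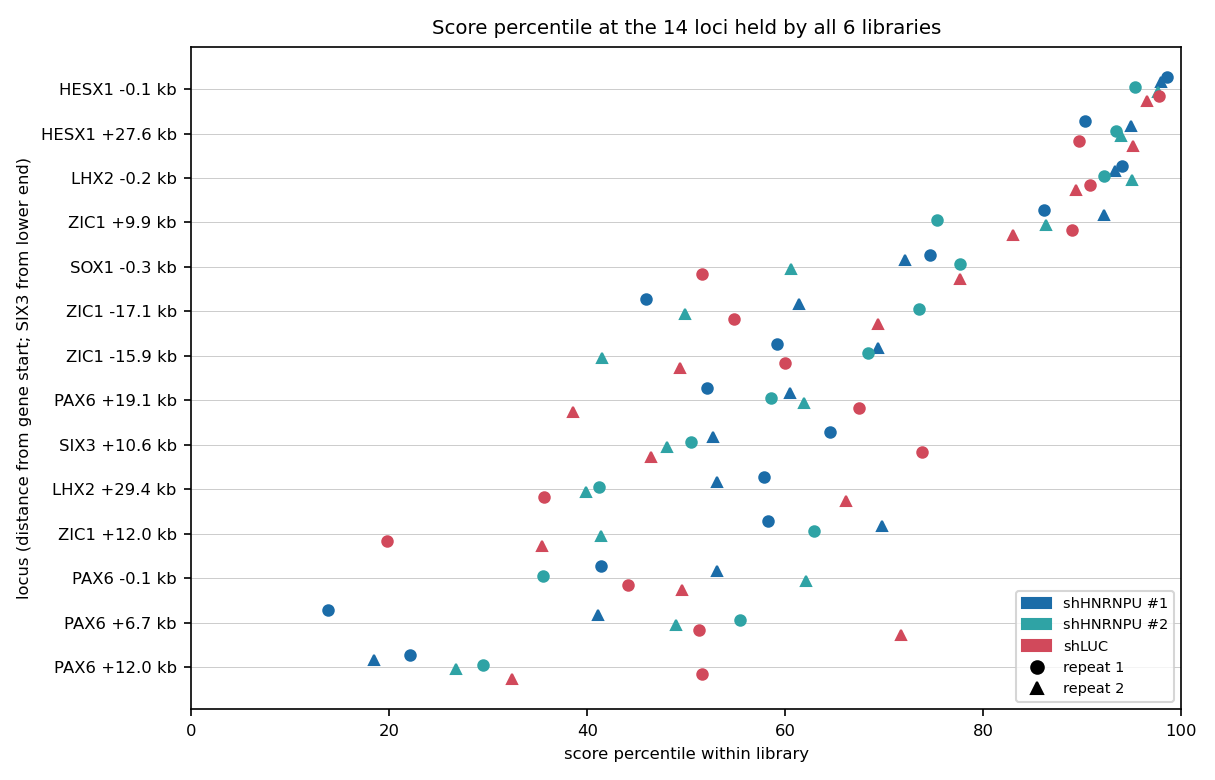
Score percentile within each library (horizontal axis) at the 14 loci that all 6 libraries held, 1 row per locus with its distance from the gene start (SIX3 from its lower end), colour for the hairpin and circles or triangles for repeats 1 and 2. The groups are apart at 3 loci, the LHX2 start, ZIC1 +12.0 kb and PAX6 +12.0 kb, and overlap at the other 11.

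Further neuroectoderm genes were counted in the same way. Of 40 such genes, among them SOX2, RAX, EMX2 and the other members of the ZIC family, 32 (80.0%) had an open end in all 6 libraries and all 40 in at least 1. Of 9 endoderm and 9 mesoderm genes, 7 each had one in every library. Around 3 of the 40 neuroectoderm genes every shHNRNPU library had more summits than both shLUC libraries, and around 0 it had fewer, against the 3.54% and 3.92% of all genes given above. In the endoderm list 1 of 9 did, GATA4, a zinc-finger factor of endoderm and heart, with 14, 14, 13 and 12 summits against 11 and 9, and in the mesoderm list 0 of 9. The 3 neuroectoderm genes were HES3, a Hes-family repressor of neural progenitors, SP8, a zinc-finger factor of the forebrain and limb, and OTX1, the paralog of OTX2. HES3 had 6, 7, 6 and 6 summits against 4 and 5. SP8 had 7, 6, 8 and 7 against 5 and 5, and OTX1 had 5, 6, 5 and 5 against 2 and 4. Each had p = 0.133 by the exact permutation test and an adjusted p of 1. The median difference was 0.5 summits over the 40 genes, 0.75 over the endoderm genes, 0.25 over the mesoderm genes and 0 over all genes tested.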

How the data were processed

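The 6 ATAC-seq libraries of H1 cells were grouped by the hairpin in their titles, 2 per hairpin. The authors deposited 1 list of summits per library, with the −log10 of the q-value as the score, as MACS2 writes it. The submitters' processing notes name cutadapt, Bowtie2, SAMtools, MACS2 and deepTools and the build hg38, without versions. Peaks were called per library, scores were not normalized between libraries, and read depth is unknown. The article given with the series describes another experiment, so nothing was taken from it but style.

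Gene positions and starts came from RefSeq tables of GRCh38.p14. Loci were built by taking the summit of highest percentile first and absorbing summits within 250 bp. Presence in a library required a summit no farther than 250 bp from the centre, so 1 summit can count for 2 neighbouring loci. Groups were compared with exact permutation tests, two-sided by doubling the smaller tail, and Benjamini-Hochberg adjustment ran over all genes with a summit in the window. Named were all 9 members, the best-scored locus of each, every locus within 2000 bp of an end, every locus lost or gained, and further neuroectoderm genes whose groups did not overlap. Loci named as lost or gained with 1 hairpin, as higher or lower in percentile or as neighbouring pairs were chosen after their values were seen. The members and lists were chosen with earlier results of these data known. Scripts were tested on simulated data and ran in Python 3.11.15, using pandas 2.3.3, numpy 2.4.6, matplotlib 3.10.9 and scipy 1.17.1. Each hairpin alone, other match distances (100 and 500 bp) and windows (10 and 50 kb), gene ends within 500 bp, absence within 1000 bp, a minimum score of 5, equal list lengths, omission of single libraries and permutation within repeats were tried as alternatives.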

Additional observations from a re-analysis of the deposited data

Results flagged for a closer look

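In 26 measures of the members' windows, no library lay apart from the other 3 shHNRNPU libraries, where about 1.3 would be expected by chance at 1 in 20. In 23 measures, the 2 shHNRNPU hairpins did not move in opposite directions with every library. No result was therefore listed here.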

How the results depend on the processing

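Of 197 recomputed values, 22 changed sign, 25 were counted as moved and 150 as neither. Those 150 did not all keep their size. With scores of at least 5, the SOX1 difference went from 2.75 to 0.5 summits and the members with an open end from 8 to 6. All differences below are shHNRNPU minus shLUC, in summits or percentile points, and none passed a threshold of 0.05, which the design cannot reach. With scores of at least 5 the difference in summits was -0.75 for PAX6, 1.5 for LHX2 and 0.75 for SIX6, the groups were apart at 0 members, and the mean percentile differed by 2.62. With lists of one size (52168 summits) LHX2 had 0.75, 2 members were apart and the percentile differed by 2.51. A match distance of 100 bp gave 2 lost loci, and 500 bp gave 1 lost locus and a percentile difference of 0.677. A window of 10 kb left 0 members apart, and 50 kb gave 0.5 for LHX2 and 1.25 for ZIC2. With a gene-end distance of 500 bp, 4 members had an open end in every library. shHNRNPU #1 alone gave 1 for LHX2, 4 members apart, 1 lost and 5 gained loci and a percentile difference of 2.30. shHNRNPU #2 alone gave -0.5 for PAX6, 2 members apart, 5 lost and 4 gained loci and a percentile difference of 2.09. These 2 percentile differences are not over the 14 loci above, since the set of loci held by every library used changes. At the 14 loci the values of each hairpin lay on both sides of the shLUC mean. With 2 libraries against 2, members come apart and loci are lost or gained more easily. The causes were not tested.

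Without each library in turn, the difference in all member summits ran from -0.25 (without shLUC repeat 1) to 8.75 (without shLUC repeat 2). Lost loci ran from 0 to 5, gained loci from 1 to 4 and members apart from 1 to 3, where fewer libraries make each of these easier to meet. The percentile difference ran from -1.23 to 2.29, again not over the same 14 loci. PAX6 ran from -0.25 without shLUC repeat 1 to 1.75, LHX2 from -1.25 to 0.75 without shLUC repeat 2 (0.333 without shHNRNPU #2 repeat 1), and ZIC2 from -2.5 to 1.5 without shLUC repeat 2. The SIX3 difference ran from 2 to 3. Without shHNRNPU #2 repeat 2, 9 members had an open end in every library.

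Repeat numbers are shared between groups but did not pair the libraries. The correlations of the repeat differences between groups were -0.0438, -0.0138 and 0.00125 over 25519 loci. With the replicate block, permuting within repeats (9 assignments, smallest p 0.222), the difference in all member summits was 4.25 (exact permutation test, p = 0.444), the percentile difference -0.0696 (p = 1) and the SIX3 difference 2.5 (p = 0.222), and 1 member stayed apart.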
